A study of Mus musculus with 8 samples.

Results

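Expression of 10 secreted signals was examined in sorted muscle satellite cells (SCs) of sedentary and trained mice: the CC chemokines Ccl2, Ccl7 and Ccl11, the CXC chemokines Cxcl1, Cxcl2, Cxcl5, Cxcl12 and Cxcl14, and the cytokines Il6 and Il33. They were picked by gene symbol from the 52636 genes in the table, and each symbol matched 1 row. The 4 control samples came from sedentary mice, and the 4 exercise samples came from mice that ran on a treadmill for 4 weeks, on 4 days per week, for 30 min per day at 12 m per min. According to the methods of the study, all were male C57B/6J mice aged 10 weeks at the start, and the sort kept cells that lacked CD45, CD11b, CD31 and Sca1 and carried CD34 and α7-integrin. The gate was thus meant to remove leukocytes, endothelial cells (CD31) and fibro-adipogenic progenitors (Sca1). About 800 cells entered each library, and the comparison asks how running changed the transcriptome of these cells. Legends of the study give n = 4 mice in 1 place and 3 to 4 mice in another for these data, while the labels do not tie a mouse to each library, so p-values measure the spread between libraries, which may in part be technical.

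Chemokines are small secreted proteins that steer leukocytes through receptors on the leukocyte surface. Ccl2 and Ccl7 draw monocytes through Ccr2, Ccl11 draws eosinophils through Ccr3, and Cxcl1, Cxcl2 and Cxcl5 draw neutrophils through Cxcr2. Cxcl12 acts through Cxcr4 and is bound by the scavenging receptor Ackr3. Il6 acts through Il6ra and the shared subunit Il6st, and Il33, an alarm signal held in the nucleus, acts through Il1rl1, Il1rap and the adaptor Myd88. In skeletal muscle these signals are known from stromal cells such as fibro-adipogenic progenitors, from activated myogenic cells and from infiltrating leukocytes.

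Values are FPKM, reads per length of gene and per size of library, as the authors deposited them. The size in the values was not the number of reads on genes. It differed most in exercise 4 (288190 against 1155592 reads), where levels are thus high for their reads. Control libraries held 2339966 to 3013354 reads on genes and exercise libraries 1011737 to 1200221. Every exercise library detected fewer genes (2348 to 3289) than every control library (5169 to 7307). The part of this in the genes without reads in exercise was not tested. The libraries were not alike within a group. Mitochondrial transcripts took 50.2% and 68.7% of the reads of exercise 3 and 4, against 7.85% and 7.56% in exercise 1 and 2. Between exercise 1 and 2 the chi-square of the reads, per degree of freedom, was 3.86, against 82.6 to 711 in the other pairs within a group. Control 4 kept 0.281 of the share of reads of genes found in control 1 and not in control 3, and 0.714 of that of genes found in control 3 and not in control 1. Exercise 3 stood in the same way between exercise 1 (0.299) and exercise 4 (0.677). The shares sum to 0.996 and 0.976, near the sum of 1 that a mixture of the pair would give. Control 4 and exercise 3 may thus be mixtures of other libraries, which was not tested further, and an SD with n = 4 may then understate the spread. The FPKM value of control 4 lay between, or at, those of control 1 and 3 for 9 of the 10 genes, and that of exercise 3 between, or at, those of exercise 1 and 4 for 7 of the 10. Tests that took the mean of exercise 1 and 2 as 1 sample, and that further dropped control 4 and exercise 3, are therefore given. The latter fit of limma, on 3 control and 2 exercise samples, called 0 of 4499 genes after adjustment and 469 at an unadjusted p under 0.05, so every call named here is lost in it.

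The labelled cell type was checked against marker genes. Of 12 satellite cell markers, Pax7, Itga7, Cdh15 and Calcr had no read in any library. Genes that most cells use, such as Tyk2 and Irak4, were also listed at 0 in all 8 libraries, so a 0 here does not show that a gene was not expressed. Sdc4, Des, Cd34 and Fgfr4 passed the filter of a mean of at least 1 FPKM. In contrast, all 14 markers of fibro-adipogenic progenitors and fibroblasts passed, although the gate was set against Sca1, with a summed level of 3581 to 5869 FPKM in control and 4097 to 11237 FPKM in exercise, against 53.5 to 73.3 and 67.1 to 124 FPKM for the satellite cell markers. Decorin (Dcn), a matrix proteoglycan, alone had 1243 to 1900 FPKM in control and 1065 to 1580.5 in exercise. Of the fibroblast markers, Lum, Gsn and Clec3b rose, Col1a2 and Mfap5 fell, and 9 did not pass the test, a count of 5 in 14 that is near the share of 35.6% of all genes tested. With exercise 1 and 2 averaged, Col1a2 and Mfap5 kept an adjusted p under 0.05 (0.0439 and 0.0292 in limma), and Lum, Gsn and Clec3b did not (0.0762, 0.132 and 0.0712). The gene groups described here thus come from libraries that hold stromal transcripts, and the part of those cells in the results was not tested. In these bulk samples fewer cells of a type and less RNA per cell cannot be told apart. The lists of 10 macrophage and monocyte, 5 neutrophil and 6 lymphocyte markers had no read in any library.

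Of the 10 genes, 9 passed the filter and entered the fit of limma on log2(FPKM + 1) across 4328 genes. With a Benjamini-Hochberg adjusted p under 0.05, Ccl2 and Ccl11 rose in exercise and Il6 fell, 3 genes in all. Of all genes tested, 35.6% passed, 8.78% as rises and 26.8% as falls, so the count of 3 in 9 is near the background. On the deposited scale the groups did not overlap in 5 genes (Ccl2, Ccl11 and Cxcl1 higher, Ccl7 and Il6 lower), beside 31.6% of all genes tested (7.62% higher and 24% lower). As a share of the reads on genes, only the groups of Ccl2 stayed apart among these 5. The median log2 fold change was 0.22 over the 9 genes and -1.42 over all genes tested, and was 0.22 and -0.68 with groups of at most 3 reads per library set to 3 reads. Quantile normalization moved the median of all genes to -0.44 and the split of calls from 380 higher and 1161 lower to 566 higher and 375 lower. Relative to the median of all genes on the deposited scale, Ccl2 lay 4.47 and Ccl11 4.79 above it on the log2 scale, and Il6 lay at -2.47. With groups of at most 3 reads per library set to 3 reads, these were 3.74, 4.05 and -3.21. After quantile normalization they were 3.69, 4.79 and -2.54.

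**Figure D1:**
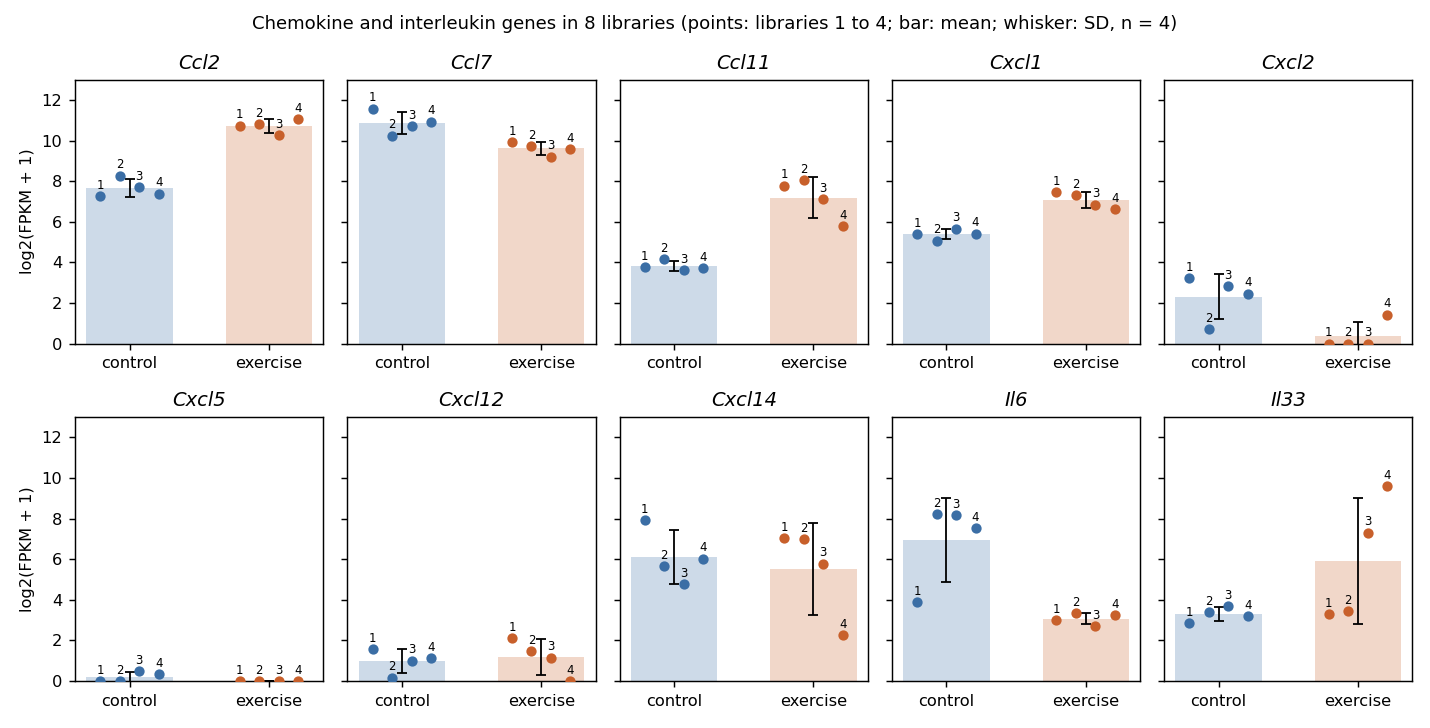
Level of each of the 10 genes as log2(FPKM + 1) on the vertical axis, with the control and exercise libraries numbered 1 to 4, the mean as a bar and the SD as a whisker (n = 4). The exercise points of Ccl2, Ccl11 and Cxcl1 all sit above the control points, those of Ccl7 and Il6 all sit below, and the other 5 genes overlap.

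Ccl2, the main attractant of monocytes, had 154, 308, 206 and 167 FPKM in control 1 to 4 and 1707, 1789, 1219.7 and 2149.65 FPKM in exercise 1 to 4. Every exercise library was above every control library, and the lowest exercise value was well clear of the highest control value. The mean rose from 209 ± 69.9 FPKM (SD, n = 4) to 1716 ± 383 FPKM, 8.22-fold, which was a change of 3.06 on the log2 scale (SE 0.51, limma adjusted p = 0.00316, exact two-sided permutation p = 0.0286, the smallest that 4 libraries against 4 allow). The values rested on 403 to 1075 reads in control and 705 to 3249 in exercise. Leaving out each library in turn gave 2.93 to 3.26, with an adjusted p of at most 0.0190. Averaging exercise 1 and 2 gave 3.04 (limma adjusted p = 0.0186), and dropping control 4 and exercise 3 as well gave 3.17 (limma adjusted p = 0.376). Scaled to the reads of each library the change was 2.60 (limma adjusted p = 0.0264).

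Ccl7 lies 8258 bases downstream of Ccl2 and draws monocytes through the same receptor. It had 3055, 1215, 1668 and 1953 FPKM in control 1 to 4 and 983, 848, 592 and 758 FPKM in exercise 1 to 4. On the deposited scale every exercise library was below every control library, the opposite order to Ccl2. As a share of the reads on genes, exercise 1 (1317 of 1058317) lay above control 2 (2981 of 2664841). Control had a mean of 1973 ± 783 FPKM and exercise of 795 ± 164 FPKM (SD, n = 4). The log2 fold change of -1.25 (SE 0.48) missed the threshold in the fit (limma adjusted p = 0.0618, exact two-sided permutation p = 0.0286). Without exercise 4 the change was -1.24 with a limma adjusted p of 0.0432, and in the 7 other fits that each left out 1 library the adjusted p was over 0.05. Averaging exercise 1 and 2 gave -1.33 (limma adjusted p = 0.115), and dropping the other libraries too gave -1.14 (limma adjusted p = 0.512). Relative to the median change of all genes, Ccl7 lay at 0.16 on the deposited scale, at -0.58 with groups of at most 3 reads per library set to 3 reads and at -0.72 after quantile normalization, so its place against all genes turned with the scale.

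Ccl11, the eosinophil attractant, lies 10297 bases beyond Ccl7. It had 12.5, 16.9, 11.1 and 12.3 FPKM in control 1 to 4, a narrow range, and 220.0, 263, 138 and 54.5 FPKM in exercise 1 to 4. The groups were separate on the deposited scale, although the value of exercise 4 rested on 17 reads. As a share of the reads on genes, exercise 4 (17 of 1155592) lay below control 2 (56 of 2664841). The mean rose from 13.2 ± 2.54 FPKM (SD, n = 4) to 169 ± 92.2 FPKM, 12.8-fold, which was a change of 3.37 on the log2 scale (SE 0.71, limma adjusted p = 0.00891, exact two-sided permutation p = 0.0286). Leaving out each library in turn gave 3.09 to 3.84, with an adjusted p of at most 0.0398. Averaging exercise 1 and 2 gave 3.13 (limma adjusted p = 0.0391), and dropping control 4 and exercise 3 as well gave 3.02 (limma adjusted p = 0.471). Scaled to the reads of each library, the adjusted p was 0.0541, at a change of 2.94.

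The 3 CC genes lie on the plus strand of chromosome 11 of mm10, the build in the submitters' processing notes: Ccl2 at 82035571 to 82037453, Ccl7 at 82045712 to 82047525 and Ccl11 at 82057823 to 82062955. The GENCODE annotation of GRCm38, which is the same assembly, gives the same coordinates for all 10 genes. Ccl12, the next gene of the cluster, had no read in any library. Ccl8, at its far end, had 0, 327, 168 and 124 FPKM in control 1 to 4 and no read in exercise. On the deposited scale the cluster thus held genes that were higher in exercise (Ccl2, Ccl11), a gene that was lower in every exercise library (Ccl7) and a gene found in 3 control libraries alone (Ccl8). The longest stretch that any transcripts of Ccl2 and Ccl7 share is 23 bases. Gm17268 overlaps Ccl2 on the other strand and had no read in any library.

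Ratios of genes within a library do not depend on how libraries are scaled, and were chosen after the values were seen, so no test is given. Ccl2 was at 0.0505 to 0.254 of the FPKM of Ccl7 in control libraries and at 1.74 to 2.84 of it in exercise libraries. Ccl11 was at 0.00409 to 0.0139 of Ccl7 in control and at 0.0719 to 0.310 in exercise. Ccl7 was thus the more abundant of the pair Ccl2 and Ccl7 in every control library and Ccl2 in every exercise library. By mean FPKM, Ccl7 ranked 28 among all genes in control and 85 in exercise, whereas Ccl2 ranked 254 in control and 50 in exercise.

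**Figure D2:**
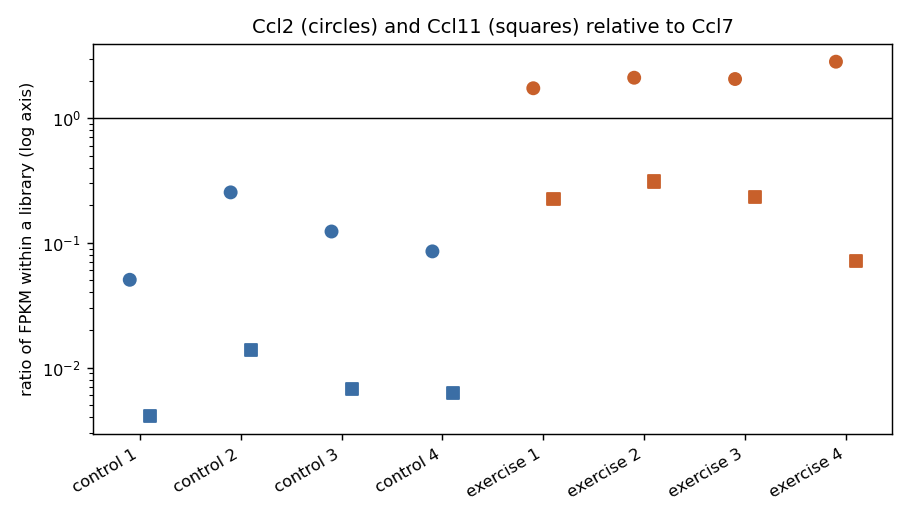
Ratio of the FPKM of Ccl2 (circles) and of Ccl11 (squares) to that of Ccl7 within each of the 4 control (blue) and 4 exercise (orange) libraries, on a log axis, with a line at a ratio of 1. Ccl2 over Ccl7 is at most 0.254 in control libraries and at least 1.74 in exercise libraries.

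Together, Ccl2 and Ccl7 made up 78.9% to 90.7% of the summed FPKM of the 10 genes in control libraries and 75.4% to 83.2% in exercise libraries. Their order differed, since Ccl7 took 62.9% to 86.4% in control and 19.7% to 30.4% in exercise, and Ccl2 took 4.36% to 16.0% in control and 52.8% to 55.8% in exercise. The sum itself overlapped between the groups, at 1932 to 3537 FPKM in control and 2282 to 3856 in exercise. As a share of the reads outside the mitochondrial genome, the 10 genes took 0.291% to 0.397% in control and 0.444% to 0.618% in exercise. As a share of all reads on genes the groups overlapped, at 0.259% to 0.350% and 0.139% to 0.570%.

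**Figure D3:**
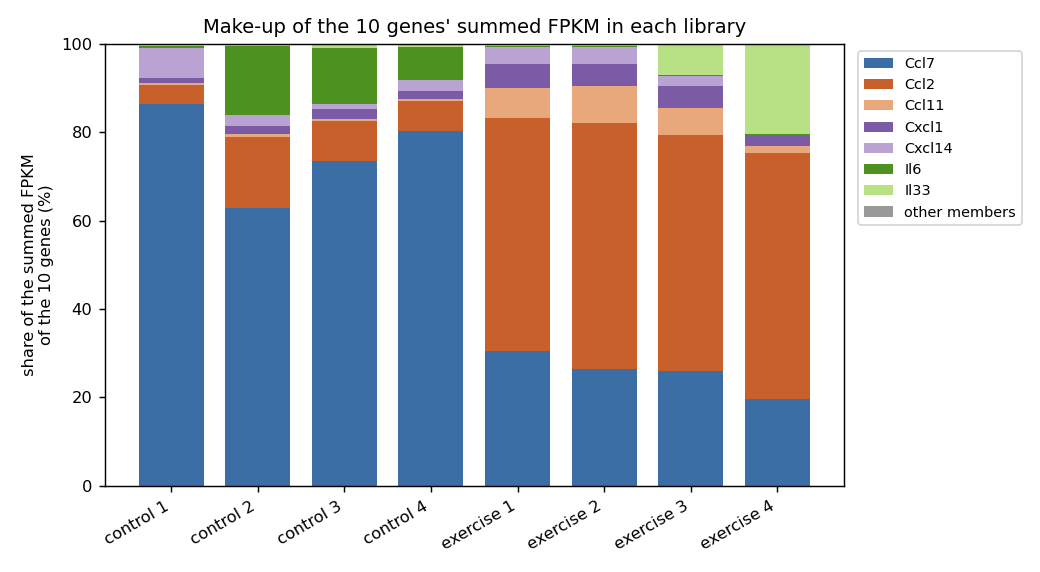
Share (%) of each gene in the summed FPKM of the 10 genes, as stacked bars for the 4 control and 4 exercise libraries. Ccl7 (blue) is the largest part in every control library and Ccl2 (orange) in every exercise library, and Il33 reaches 20.3% in exercise 4.

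Cxcl1, a neutrophil attractant, had 40.9, 32.7, 49.9 and 41.6 FPKM in control 1 to 4 and 175, 159, 114 and 98.1 FPKM in exercise 1 to 4. The groups were separate on the deposited scale, and the mean went from 41.3 ± 7.0 FPKM to 137 ± 36.5 FPKM (SD, n = 4), 3.31-fold higher. As a share of the reads on genes, exercise 4 (53 of 1155592) lay below every control library, the lowest being control 2 (188 of 2664841). The log2 fold change of 1.68 (SE 0.59) had a limma adjusted p of 0.0501, at the edge of the threshold (exact two-sided permutation p = 0.0286). The adjusted p was 0.0274 without control 1 and 0.0121 without exercise 4, and over 0.05 without any of the other libraries. It was 0.127 when exercise 1 and 2 were averaged and 0.508 when control 4 and exercise 3 were dropped too, at changes of 1.57 and 1.63. Scaled to a constant sum of FPKM, the change was 0.99 (limma adjusted p = 0.383), and after quantile normalization it was 2.39, which passed (limma adjusted p = 0.0294). Cxcl1 lies at 90891241 to 90893115 on the plus strand of chromosome 5.

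Cxcl2, which acts on the same receptor and lies 10755 bases beyond Cxcl1, at 90903871 to 90905938, was lower in most exercise libraries. It had 8.43, 0.632, 6.19 and 4.49 FPKM in control 1 to 4, from 40, 4, 50 and 37 reads, and no read in exercise 1 to 3 and 1 read (1.68 FPKM) in exercise 4. Control 2 lay below exercise 4, so the groups overlapped. With the exercise libraries set to 3 reads each, the exercise mean was lower by at least 2.43-fold. On the fitted log2 scale, whose values turn on the pseudocount, the difference of Cxcl2 was -1.96 (SE 0.71, limma adjusted p = 0.0532, exact two-sided permutation p = 0.0571). The adjusted p was 0.0254 without control 2 and 0.0321 without exercise 4, and was 0.125 after averaging exercise 1 and 2 and 0.522 after the further exclusions. The difference was -0.71 after quantile normalization (limma adjusted p = 0.414), -4.16 with a pseudocount of 0.1 (0.0319) and -2.49 with a constant sum of FPKM (0.0264). A transcript of Cxcl2 shares a stretch of 157 bases with Cxcl3, so reads of these genes cannot be told apart with certainty, but Cxcl3 had 1 read in all, in exercise 4. Cxcl5, on the same chromosome at 90759360 to 90761624, had 3 reads in control 3, 2 in control 4 and none elsewhere, and was under the filter. No group of Cxcl5 was above the level that a count of 0 allows, so no difference was detectable at this depth.

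The promoters of Cxcl1, Cxcl2 and Il6 are shown because they hold the same binding motif of NF-kB while Il6 fell and Cxcl1 and Cxcl2 did not pass the test. RefSeq windows (250 bases before to 50 bases after a start, GRCm38.p6) were at hand for 6 of the 10 genes, and the motif GGGAATTTCC, with any base allowed at its position 5, was searched on both strands. It was found in the windows of Cxcl1, Cxcl2 and Il6 and in 0.411% of all 32851 windows. The 150 bases before each RefSeq start are given on the plus strand, 5′ to 3′, with the motif in capitals, from chr5:90891095-90891244 (Cxcl1), chr5:90903749-90903898 (Cxcl2) and chr5:30012964-30013113 (Il6).
Cxcl1: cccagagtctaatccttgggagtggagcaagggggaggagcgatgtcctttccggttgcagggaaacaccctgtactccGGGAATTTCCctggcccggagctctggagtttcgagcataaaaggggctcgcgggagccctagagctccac
Cxcl2: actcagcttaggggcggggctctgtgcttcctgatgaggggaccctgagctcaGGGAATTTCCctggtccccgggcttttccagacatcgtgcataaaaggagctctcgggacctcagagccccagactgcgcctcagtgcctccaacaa
Il6: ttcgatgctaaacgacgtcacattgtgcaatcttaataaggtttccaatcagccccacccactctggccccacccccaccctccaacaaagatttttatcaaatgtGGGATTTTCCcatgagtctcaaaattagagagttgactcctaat
The RefSeq start lies 4 bases inside the gene of the deposited table for Cxcl1 and 28 bases inside it for Cxcl2, and at its first base for Il6. Counted from the RefSeq start the motif begins 71 bases before Cxcl1, 97 before Cxcl2 and 44 before Il6, and counted from the deposited start 67, 69 and 44 bases before. It was on the strand of the gene in each, and its letters are the same in Cxcl1 and Cxcl2. Further motifs were searched the same way. The C/EBP motif TTGCNNAA (10.8% of all windows) was in those of Il6 and Il33, the AP-1 motif TGANTCA (7.81%) in that of Il6, and the STAT motif TTCNNNGAA (8.30%) in that of Cxcl14. No hit overlapped that of another motif. A match describes letters and does not show that a factor was bound.

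Cxcl12, which retains progenitors and leukocytes in their niche, was low, with 1.97, 0.12, 1.0 and 1.17 FPKM in control 1 to 4 and 3.29, 1.76, 1.21 and 0 FPKM in exercise 1 to 4. These came from 3 to 38 reads in control and 0 to 45 in exercise, and the groups overlapped. The log2 fold change was 0.22 (SE 0.60, limma adjusted p = 0.780), and no direction can be given, since it turned to -0.051 without control 2 and to -0.092 without exercise 1. The level is per length of all exons of the gene (8176 bases), on the plus strand of chromosome 6 at 117168535 to 117181367. Cxcl14, a chemokine of many tissues whose receptor is not settled, had 244, 49.7, 26.6 and 64.3 FPKM in control 1 to 4 and 131, 127, 53.8 and 3.80 FPKM in exercise 1 to 4. Its range within each group was wider than the gap between them (log2 fold change -0.58, SE 1.17, limma adjusted p = 0.693). The change was 0.03 without control 1 and 0.50 without exercise 4, which held 2 reads of it. Cxcl14 lies on the minus strand of chromosome 13, at 56288643 to 56296551.

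Il6 had 13.8, 299, 289.5 and 182 FPKM in control 1 to 4 and 6.90, 9.03, 5.57 and 8.57 FPKM in exercise 1 to 4. All exercise libraries were lower than all control libraries on the deposited scale, but control 1 was close to the exercise values and far from the other controls. As a share of the reads on genes, exercise 2 (35 of 1011737) lay above control 1 (77 of 2339966). Control had a mean of 196 ± 133 FPKM and exercise of 7.52 ± 1.59 FPKM (SD, n = 4), 26.1-fold lower. The log2 fold change was -3.88 (SE 1.0, limma adjusted p = 0.0200, exact two-sided permutation p = 0.0286). Exercise 1 to 4 held 28, 35, 15 and 6 reads of Il6. When 1 library at a time was left out, the fits without control 1 (change -4.90) and without exercise 4 (-3.95) kept the adjusted p under 0.05, at 0.000213 and 0.0280, and the other 6 gave 0.0513 to 0.0677. It was 0.0546 when exercise 1 and 2 were averaged (change -3.91) and 0.471 when control 4 and exercise 3 were dropped as well (change -3.56). Quantile normalization gave -2.99 (limma adjusted p = 0.0699). Il6 lies on the plus strand of chromosome 5, at 30013114 to 30019981.

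Genes outside the 10 shared the pattern of Il6 among the controls. Kdr, chosen after its values were seen, is an endothelial receptor of VEGF and had 0, 2994, 1669 and 1076 FPKM in control 1 to 4 and at most 0.530 FPKM in exercise. Of the 9 endothelial markers, 7, among them Pecam1 and Cdh5, had no read in any library, Kdr fell (limma adjusted p = 0.0281, and 0.0632 with exercise 1 and 2 averaged), and Tek rose (0.00395 and 0.0177). Kdr passed the filter through the control group alone, and its groups overlapped. Its call held in 1 of the 8 fits that left out a library. The sort was set against CD31, the product of Pecam1. The summed level of that list was 0.0925 to 2994 FPKM in control and 4.42 to 26.2 in exercise, and its part in the values of Il6 was not tested. Of the 12 stress and dissociation genes, Jund rose, Atf3 and Ier3 fell, and 9 did not pass the test. Of all genes tested, 8.78% rose and 26.8% fell. With exercise 1 and 2 averaged only Ier3 of these 3 kept an adjusted p under 0.05 (limma, 0.00422). The summed level of the 12 genes was 2517 to 4395 FPKM in control and 879 to 1387 in exercise, and its part in the results was likewise not tested.

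Il33 had 6.19, 9.62, 11.8 and 8.17 FPKM in control 1 to 4 and 8.70, 9.99, 158 and 782 FPKM in exercise 1 to 4. Exercise 1 and 2 lay within the range of the controls, and exercise 3 and 4, the libraries rich in mitochondrial reads, lay above it. The mean of exercise was 26.8 times that of control, but the log2 fold change of 2.63 (SE 1.35) did not pass the test (limma adjusted p = 0.138, exact two-sided permutation p = 0.171). Without exercise 4 it was 1.40 (limma adjusted p = 0.259). With exercise 1 and 2 averaged it was 3.48 (limma adjusted p = 0.0911), and with the further exclusions 3.18 (limma adjusted p = 0.471). Quantile normalization gave 3.68, which passed (limma adjusted p = 0.0433), and array quality weights gave -0.042 (limma adjusted p = 0.968). The reads showed the same order, with 505 and 650 reads in exercise 3 and 4 against 42 and 46 in exercise 1 and 2. Exercise 3 may be a mixture of exercise 1 and 4, so the high values may rest on exercise 4 alone, which was not tested. Myofiber markers were not uniform among these libraries either, with a summed level of 59621 FPKM in exercise 4 and of 19592 to 20864 in the others, and 32895 to 67560 in control. The part of either in the level of Il33 was not tested. Il33 lies on the plus strand of chromosome 19, at 29925114 to 29960718.

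**Figure D4:**
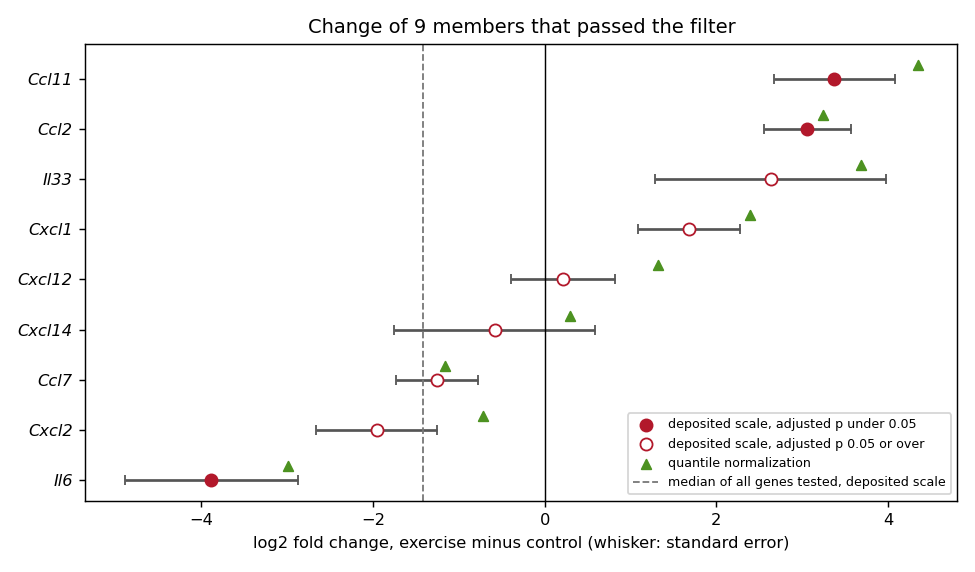
Log2 fold change (exercise minus control) with its standard error for the 9 genes that passed the filter, on the deposited scale (circles, filled where the adjusted p was under 0.05) and after quantile normalization (triangles), with the median of all genes tested as a broken line at -1.42. Ccl2, Ccl11 and Il6 are filled, and quantile normalization moves Cxcl14 across 0.

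Within the groups, Ccl2, Ccl11 and Cxcl1 did not share an order of libraries on the deposited scale. Ccl2 was highest in control 2 and in exercise 4, the libraries where Cxcl1 was lowest, and Ccl11 was highest in control 2 but lowest in exercise 4. The place of Ccl2 in exercise 4 turned with the scale. By reads, that library held the fewest of each gene among exercise libraries (705 of Ccl2, 17 of Ccl11 and 53 of Cxcl1). It had 1155592 reads on genes, within the 1011737 to 1200221 of the exercise libraries. By Pearson correlation of log2(FPKM + 1) over all 8 libraries, which takes in the difference between the groups, Rtn4 (0.986) and Lum (0.985) were most like Ccl2 among all genes tested, Snx8 (0.997) and Tob1 (0.997) most like Ccl11, and Sbds (0.997) and Eid1 (0.997) most like Il6.

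Few reads fell on the receptors of these signals. As for the markers, a 0 does not show that a receptor was not expressed. Of 22 chemokine receptors, 20 had no read in any library, among them Ccr2, Ccr3 and Cxcr2. Cxcr4, the receptor of Cxcl12, had 2 reads in control 3 alone. Ackr3 passed the filter, with 8.46, 1.37, 0.230 and 2.17 FPKM in control 1 to 4 and 7.15, 7.11, 4.58 and 1.04 FPKM in exercise 1 to 4, so the groups overlapped (log2 fold change 0.78, SE 0.81, limma adjusted p = 0.437). Il6st had 8.37, 0, 16.7 and 15.2 FPKM in control and 10.7, 9.88, 5.77 and 1.25 FPKM in exercise, with a log2 fold change of -0.12 (SE 1.04, limma adjusted p = 0.927). Il6ra had 3 reads in control 1 and 3 in control 4, Il1rl1 had no read, and Il1rap had 1 read each in control 2, 3 and 4.

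Of 113 genes of receptors, other chemokines, signalling and chemokine trimming, 28 passed the filter, and 3 rose and 6 fell, beside 8.78% and 26.8% of all genes tested. Of the 6 falls, Ccl8, Cish, Map3k7, Rela and Tollip had at most 1 read over all exercise libraries, so they passed the filter through the control group alone and their count supports nothing. With at least 1 FPKM required in 4 libraries, Ccl8, Cish, Map3k7 and Tollip were not tested. With exercise 1 and 2 averaged, 3 of these 9 kept an adjusted p under 0.05 in limma, Myd88 (0.00398), Lif (0.0208) and Rela (0.0407). These were also the ones that kept it in all 8 fits that left out a library. Rela had no read in exercise, so these fits lend its fall no support either. Myd88, the adaptor of the Il33 and Il1 receptors, rose from 3.72, 0.254, 0.0995 and 0.974 FPKM in control 1 to 4 to 1321, 1347, 722 and 106 FPKM in exercise 1 to 4. Its groups were separate, with a log2 fold change of 8.33 (SE 0.97, limma adjusted p = 0.000681). Lif, a cytokine of the Il6 family, rose from 0, 0.0751, 2.18 and 1.5 FPKM to 49.4, 49.0, 31.3 and 12.0 FPKM (log2 fold change 4.23, SE 0.75, limma adjusted p = 0.00432). On the deposited scale Lif was thus higher and Il6 lower in every exercise library.

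Of the NF-kB subunits, Rela fell, and Nfkb1 rose in a call that was lost with exercise 1 and 2 averaged (limma adjusted p = 0.0869). Nfkb1 had 0.361, 2.84, 1.93 and 1.73 FPKM in control and 15.3, 17.5, 9.50 and 6.04 FPKM in exercise (log2 fold change 2.26, SE 0.66, limma adjusted p = 0.0316). Rela had 1.93, 21.9, 14.3 and 7.30 FPKM in control and no read in exercise, at least 7.35-fold lower with the exercise libraries set to 3 reads each (limma adjusted p = 0.0110). Map3k7, a kinase upstream of NF-kB, had no read in exercise and 0.254 to 5.36 FPKM in control (limma adjusted p = 0.0351, and 0.0857 with exercise 1 and 2 averaged), and the other 7 genes of that list that passed the filter, such as Nfkbia, did not pass the test. Of all genes tested, 35.6% passed. The list had a median log2 fold change of 0.53, against -1.42 for all genes tested. With groups of at most 3 reads per library set to 3 reads, these medians were 0.53 and -0.68. Tollip, an inhibitor in the Il1 pathway, also had no read in exercise (limma adjusted p = 0.0450, and 0.0990 with exercise 1 and 2 averaged). Map3k7 and Tollip are named because they complete these counts. Like Rela, they passed the filter through the control group alone, so the p-values of these genes support nothing.

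Of 26 other chemokines, 18 had no read in any library, and Cxcl10 and Ccl8, the only ones of them to pass the filter, both fell. Cxcl10, a target of interferon, had 0.968, 215, 118 and 78.3 FPKM in control 1 to 4 and 1.59, 1.11, 4.81 and 0 FPKM in exercise (log2 fold change -4.24, SE 1.39, limma adjusted p = 0.0414). In exercise Ccl8 was lower by at least 18.9-fold, with libraries of at most 3 reads set to 3 reads (limma adjusted p = 0.0284), and at least 11.9-fold without control 2. Cish, a feedback inhibitor of cytokine receptors, had 0, 52.3, 31.65 and 14.7 FPKM in control and 1 read in exercise, at least 37.8-fold lower (limma adjusted p = 0.0363) and at least 23.7-fold without control 2. In Cxcl10, Ccl8 and Cish, as in Il6, control 1 was near the exercise libraries, and the groups of these 3 genes overlapped. All 3 calls were lost with exercise 1 and 2 averaged (limma adjusted p = 0.0869, 0.0672 and 0.0813), and of the 8 fits that left out a library they held only in the fit without control 1. Of the Il6 family and signalling list, 8 of 10 genes that passed the filter did not pass the test, Stat3 and Socs3 among them, and its median log2 fold change was -0.28. Of all genes tested, 35.6% passed.

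**Figure D5:**
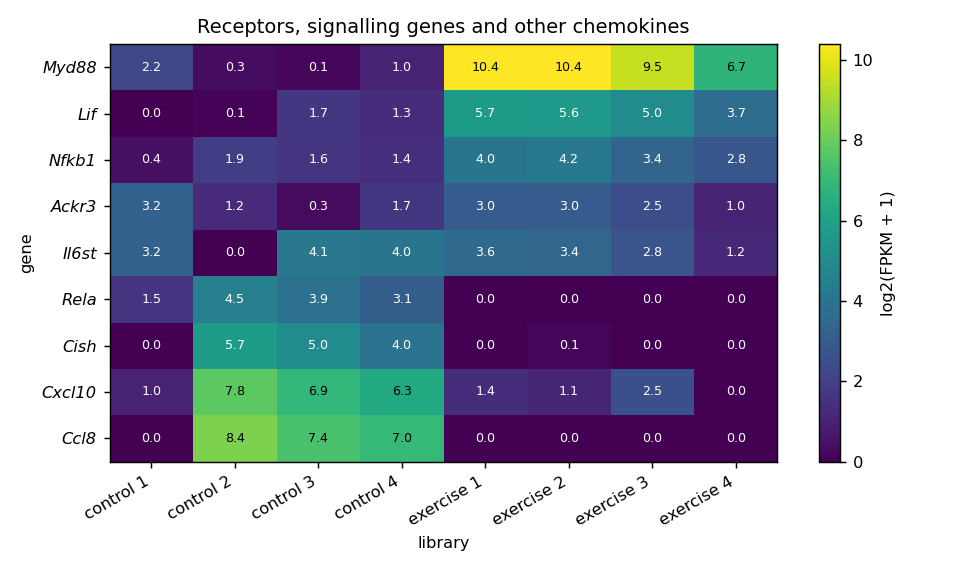
Level as log2(FPKM + 1), by colour and by the number in each cell, of 9 genes (rows) in the 4 control and 4 exercise libraries (columns). Myd88, Lif and Nfkb1 are higher in all exercise libraries, Rela is 0 in all of them, and Cish, Cxcl10 and Ccl8 are high in control 2 to 4 and at most 2.5 in control 1 and in exercise.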

How the data were processed

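RNA of about 800 sorted cells per library was sequenced from 4 control and 4 exercise samples. The authors deposited FPKM of each gene in 1 table. As the methods and the submitters' processing notes give it, reads were aligned to mm10 with Bowtie 0.12.9, FPKM were computed with Cufflinks 2.1.1 and reads were counted with HTSeq. Multiplied by gene length, all values of a library were whole multiples of its smallest step (tolerance 0.001), which gave the reads. Amplified reads are not independent molecules, so a floor of 3 reads for a count of 0 covers counting error only. Rows that share a symbol were summed (101 fewer rows).

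A gene was tested if its mean reached 1 FPKM. The test was that of limma 3.58.1 (R 4.3.3) for log2(FPKM + 1) (trend in the variance, Benjamini-Hochberg over 4328 genes). It was run on simulated data with independent libraries only, which does not cover libraries that may share transcripts. Fold changes on this scale understate those of low genes. The authors used DESeq2, which was not run here. Exact two-sided permutation tests used the 70 assignments of 8 libraries (scipy 1.17.1). The genes, the lists of pathway and marker genes and the tests were chosen with earlier results of these data known. Named besides the 10 genes were their receptors, up to 4 of the largest rises (3 were found) and 4 of the largest falls among list genes with an adjusted p under 0.05, and the 2 genes most correlated with each.

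The alternatives were a pseudocount of 0.1, no filter or at least 1 FPKM in 4 libraries, quantile normalization, a constant sum, no trend, voom on the recovered reads, weights for array quality, a block for the replicate number, leaving out each library, and the fits without libraries that share transcripts. Scaling to reads on genes, with and without mitochondrial ones, was added after seeing the data.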

Additional observations from a re-analysis of the deposited data

Results flagged for a closer look

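Of 27 groups of 4 libraries examined for the 10 genes and for 4 library measures, 3 held a single library that stood apart, and chance gives about 1 in 20. Cxcl2 had a log2(FPKM + 1) of 1.42 in exercise 4, from 1 read, and 0 in the other exercise libraries. Any read would stand apart from 3 libraries at 0, and this level (1.68 FPKM) is under the 5.03 FPKM that 3 reads give there, so it tells nothing of Cxcl2. In control 1 Il6 had 3.89, while control 2 to 4 had 7.52 to 8.23. The FPKM values of all genes summed to 2488140 in exercise 4, against 331669 to 637095 in the other exercise libraries, and the size factor in its values was 0.167, against 0.643 to 0.970.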

How the results depend on the processing

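Of 252 values recomputed under 21 alternatives, Ccl2 and Ccl11 were higher and Il6 lower in exercise in all 21, with an adjusted p under 0.05 in 20, 18 and 12. Of the 10 genes, 3 passed the threshold on the deposited scale (35.6% of all genes), 6 with a pseudocount of 0.1 (42.9%), 5 with at least 1 FPKM in 4 libraries (42.0%), 7 with array quality weights (68.8%), 2 to 6 when each library was left out (11.9% to 47.5%; 6, beside 32.6%, without exercise 4), and 0 with exercise 1 and 2 averaged and control 4 and exercise 3 left out. Of the receptor and signalling genes, 9 passed, 3 without a filter, 5 with at least 1 FPKM in 4 libraries, 4 after quantile normalization, 17 with array quality weights, 3 to 11 when each library was left out, 3 with exercise 1 and 2 averaged and 0 with the other exclusions added. Of all genes, 1541 passed, 840 without a filter, 941 after quantile normalization, 2978 with array quality weights, 527 to 1899 when each library was left out, 596 with exercise 1 and 2 averaged and 0 with the other exclusions added. The cause of these moves was not tested, except that the last fits hold fewer samples.

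The log2 fold change of Cxcl12 turned to -0.0031 with those exclusions and was -0.092 to 0.61 when each library was left out. That of Cxcl14 turned to 0.29 after quantile normalization and to 1.79 with array quality weights, where the higher level passed the test (limma adjusted p = 0.00925), and was -1.09 to 0.50 when each library was left out (0.03 without control 1). That of Il33 turned to -0.042 with array quality weights. The replicate numbers did not pair the libraries (correlations of deviations -0.017 to 0.039). With the number as a replicate block, 3 of the 10 genes, 6 receptor and signalling genes and 1059 of all genes passed. Exercise 4, with few reads per FPKM, limits what low genes can show there.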

Other observations

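The genes named in this paragraph and the proteases were chosen after their values were seen. Among the markers of tendon cells, Scx, a transcription factor of that lineage, had at most 0.442 FPKM in control and 101, 102, 49.2 and 3.05 FPKM in exercise 1 to 4 (limma adjusted p = 0.00844), while Kera, a keratan sulfate proteoglycan, had 5.28 to 27.9 FPKM in control and no read in exercise (limma adjusted p = 0.00577). Tnmd, a tendon membrane protein, overlapped between the groups, with 233 to 731 FPKM in control and 69.2 to 774 in exercise. Myh11, a smooth muscle myosin, had no read in control and 70.1, 71.5, 35.6 and 3.14 FPKM in exercise (limma adjusted p = 0.00646), while Tagln and Cnn1, of the same list, had no read in any library. Acta2, smooth muscle actin of that list, had 0.734, 0, 43.3 and 35.1 FPKM in control 1 to 4 and at most 2.03 FPKM in exercise (limma adjusted p = 0.22), and Pdgfrb, a pericyte receptor, had 2.02 to 4.65 FPKM in control and 0.633 to 17.5 in exercise (limma adjusted p = 0.287). With exercise 1 and 2 averaged, the limma adjusted p was 0.0311 for Scx, 0.0267 for Kera and 0.0248 for Myh11. Scx and Myh11 passed the filter through the exercise group alone and Kera through the control group alone, so these p-values support nothing.

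By Pearson correlation of log2(FPKM + 1) over the 8 libraries, which takes in the difference between the groups, the genes most like the other members were Ctso (0.988) and Fundc1 (0.988) for Cxcl1, Msrb3 (0.987) and Sumo3 (0.976) for Cxcl2, Nfix (0.970) and Col5a3 (0.945) for Cxcl12, and Atp6v1g1 (0.992) and Atp6v0e (0.988) for Cxcl14. They were March6 (0.982) and Btf3 (0.968) for Ccl7, and Ifi207 (0.997) and Nup50 (0.996) for Il33. No member was among them. Dpp4, a protease that trims chemokines, did not reach the filter and held 66, 20, 20 and 13 reads in the controls and none in exercise. Mmp2, the only gene of that list of 6 to pass the filter, had 12.2 to 110 FPKM in control and 7.21 to 50.9 in exercise (limma adjusted p = 0.437).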
